A study of Mus musculus with 2 samples.

Results

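MicroRNA (miRNA) genes that lie in the Hox clusters were examined in a hind limb muscle, the gastrocnemius of the calf. The mice were 4-day-old B6CASTF1/J females, first-generation hybrids of the strains C57BL/6J and CAST/EiJ. The members were 6 of the 2202 miRNA genes counted, chosen by name because they lie in the 4 Hox clusters: Mir10a, Mir10b, Mir196a-1, Mir196a-2, Mir196b and Mir615. The series holds 1 group of 2 libraries of RNA below 30 bases, with no treatment, genotype or tissue to compare. Its labels call the libraries biological replicates from separately numbered females but give both the same donor identifier, and the p-values below compare reads of these libraries only. Library 1 held 5569392 reads assigned to miRNA genes on their own strand and library 2 held 4336759. Levels are counts scaled to those totals (CPM), as mean ± SD over the libraries, and detection means at least 2 CPM in each library. Of the 9 skeletal muscle miRNA genes used to check the tissue, 8 were detected. Their summed level was 130998 CPM in library 1 and 120702 in library 2. It was almost wholly Mir206, at 129336 and 119323 CPM. The list's median was 82.9 CPM, so the check rests mainly on Mir206. Reads that match several places enter no gene's count, and shared sequences were not searched for this list. A low count of a list gene thus need not mean a low level. In a whole muscle, fewer cells of a type and less RNA per cell cannot be told apart.

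Hox genes encode homeodomain transcription factors that give cells their position along the body axis and the limb, and they are lined up in each cluster in the order in which they act along the axis. A few miRNA genes sit between or inside the Hox genes and are transcribed in the same direction. The best known, miR-196, is associated with the posterior trunk and the hind limb, and it cleaves the messenger RNA of Hoxb8 through an almost perfectly matched site. A miRNA finds its targets mainly through its seed, bases 2 to 8 counted from the 5′ end.

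The mature sequences are shown first because they sort the 6 genes into seed groups and decide which reads can be assigned to 1 gene. RefSeq (GRCm38.p6) held mature sequences for all 6 members. Seeds are in capitals, 5′ to 3′.
miR-10a-5p: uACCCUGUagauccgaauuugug
miR-10b-5p: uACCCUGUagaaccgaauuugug
miR-196a-5p: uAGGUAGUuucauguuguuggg
miR-196b-5p: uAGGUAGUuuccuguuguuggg
miR-615-3p: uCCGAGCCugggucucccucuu
let-7i-5p: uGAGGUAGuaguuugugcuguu
miR-99a-5p: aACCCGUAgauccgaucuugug
The mir-10 pair shared its seed with each other and with no other of the 1679 mature miRNA names searched. The same held for miR-196a-5p and miR-196b-5p, while the seed of miR-615-3p had no other owner. Within each pair the 5′ arms differed at 1 base, outside the seed, counted from 1 at the 5′ end of the first-named sequence. That difference was U12A between miR-10a-5p and miR-10b-5p, and A12C between miR-196a-5p and miR-196b-5p. The opposite (3′) arms of the mir-10 pair differed at 3 bases, A3G, U9A and A10U, of which the first lies in the seed. The last lines show relatives outside the Hox clusters. The seed of miR-196 and that of let-7 share a run of 6 bases, agguag, shifted by 1 base, and the seeds of miR-10 and miR-99a begin with the same 4 bases, accc.

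Only Mir196a-1 and Mir196a-2 shared 20 bases or more with another counted gene, and they did so with each other. Their hairpins are printed because their counts rest on this overlap. The mature miR-196a-5p is in capitals, and it is also the whole of the 22 bases they share.
Mir196a-1: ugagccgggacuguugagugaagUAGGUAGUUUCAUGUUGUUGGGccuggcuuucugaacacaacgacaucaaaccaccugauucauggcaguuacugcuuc
Mir196a-2: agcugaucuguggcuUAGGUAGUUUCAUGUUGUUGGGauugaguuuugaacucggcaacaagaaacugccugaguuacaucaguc
A read that is exactly miR-196a-5p therefore matched 2 counted genes, whereas the same read with 1 further base of its hairpin at either end matched 1. The 3′ arms were each found in 1 counted gene. The deposited tables put reads that match several places in a line of their own, which held 36.9% of all reads in library 1 and 37.6% in library 2, and give no split of that line by gene. How many of those reads were miR-196a was not tested, so the levels of both Mir196a genes are uncertain and can be too low. Among the other members the longest run shared with another counted gene was 15 bases, between Mir10a and Mir10b. A single base separates their 5′ arms, and how the alignment treated mismatches is not given here.

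All 6 genes lie on the same strand as their Hox neighbours in GENCODE M21 on mm10. Mir196b, at chr6:52230081-52230165 on the minus strand, lies within the Hoxa9 gene and 1.03 kb downstream of Hoxa10. It overlaps an exon of 2 of the 3 Hoxa9 transcripts there, with no coding sequence or UTR annotated at the site. Mir196a-1, at chr11:96265164-96265265 on the plus strand, is intergenic, 6.19 kb upstream of Hoxb9. Mir196a-2, at chr15:102973350-102973434 on the plus strand, lies between Hoxc10, 1.46 kb away, and Hoxc9, 3.00 kb away, in an intron of a long Hoxc5 transcript. Mir10a, at chr11:96317165-96317274 on the plus strand, is intergenic and ends 0.992 kb before Hoxb4. Mir10b, at chr2:74726070-74726137 on the plus strand, lies in introns of 2 Hoxd4 transcripts and of 1 Hoxd3 transcript. Mir615, at chr15:103014910-103015001 on the plus strand, lies in introns of both Hoxc5 transcripts that span it. The 3 mir-196 genes thus stand next to Hoxa9, Hoxb9 and Hoxc9, and the mir-10 genes next to Hoxb4 or inside Hoxd4. A further miRNA gene counted within the clusters, Gm44463 in Hoxd, had 0 counts in both libraries. The upper limit on its level was 0.539 CPM in library 1 and 0.692 in library 2.

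**Figure D1:**
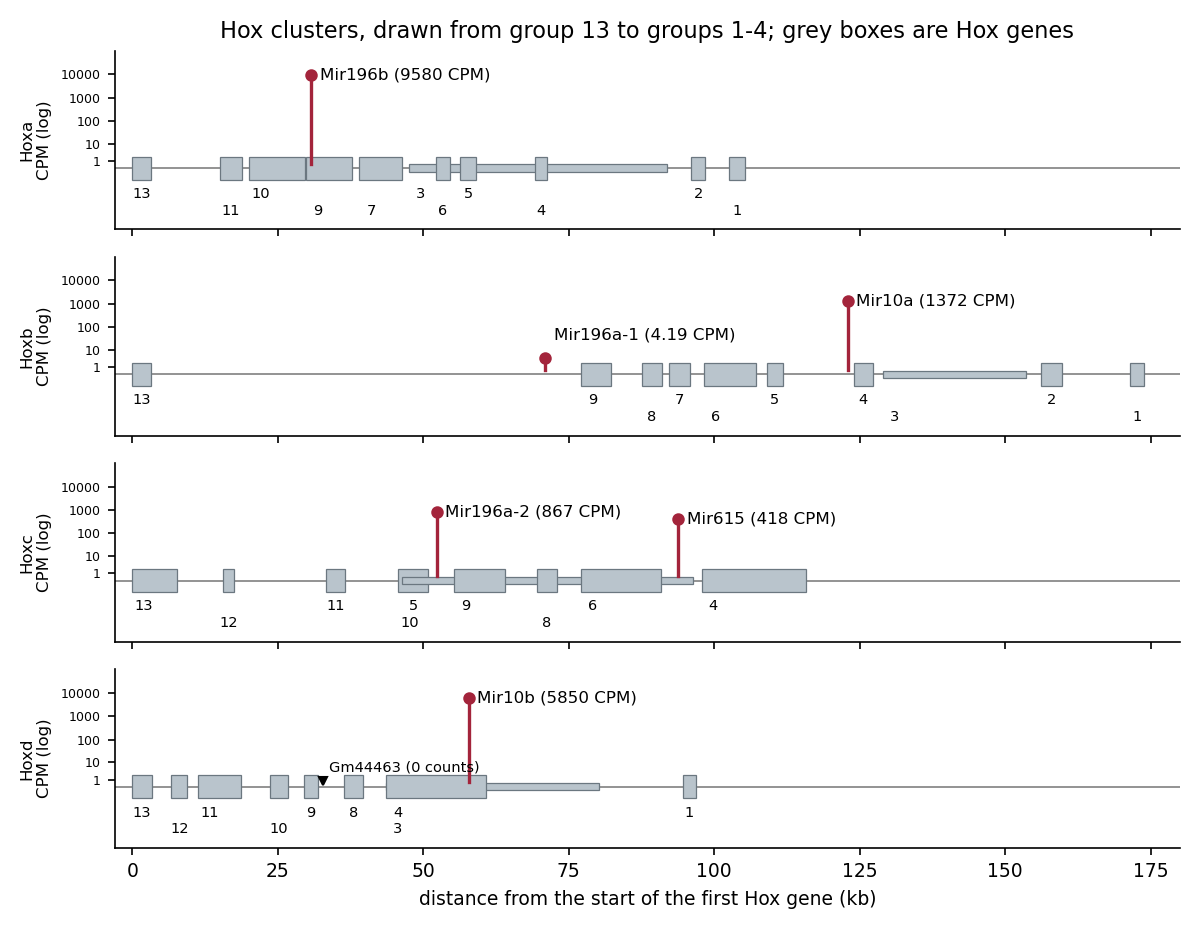
The 4 Hox clusters are drawn along the direction of transcription, with distance in kb from the start of the first Hox gene on the x axis. Grey boxes are Hox genes with their group numbers (thin boxes are genes longer than 20 kb), and red stems give the mean level of each miRNA gene on a log scale of CPM + 1, from 4.19 for Mir196a-1 to 9580 for Mir196b.

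All 6 members were detected, and together they held 1.89% of gene counts in library 1 (exact 95% binomial interval 1.88 to 1.90) and 1.72% in library 2 (1.71 to 1.74). The intervals cover counting error only. Reads that match several places are missing from both the member counts and the gene totals. The members spanned a wide range, and 5 of the 6 stood above 123 CPM, the median of the 335 detected genes. Mir196b and Mir10b alone made up 85.6% of the Hox-cluster counts in library 1 and 84.9% in library 2.

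The mir-196 genes held most of these counts, 55.6% of the Hox-cluster total in library 1 and 60.2% in library 2, most of it from the HoxA copy. Mir196b had 53732 counts in library 1 and 41253 in library 2, which is 9648 CPM and 9512 CPM. Its libraries lay close together, and at 9580 ± 95.7 CPM (SD, n = 2) it ranked 23rd of all counted genes by mean level. Mir196a-2, the HoxC copy, had 4854 and 3736 counts, or 872 CPM in library 1 and 861 CPM in library 2. Mir196a-1, the HoxB copy, had 21 and 20 counts, or 3.77 CPM (exact 95% Poisson interval 2.33 to 5.76) in library 1 and 4.61 CPM (2.82 to 7.12) in library 2. Its intervals overlapped and came close to the detection limit, so its level is known only roughly. Mir196a-2 was counted at 867 ± 7.13 CPM and Mir196a-1 at 4.19 ± 0.595 CPM although they make the same 5′ product. Those counts cover only reads that matched 1 place.

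The mir-10 pair held 42.1% of the Hox-cluster counts in library 1 and 37.5% in library 2. Mir10b, the HoxD gene, had 36559 counts in library 1 and 22273 in library 2, or 6564 and 5136 CPM. Library 1 was the higher, and the mean was 5850 ± 1010 CPM (SD, n = 2). Mir10a, the HoxB gene, had 7860 and 5778 counts, or 1411 and 1332 CPM, with a mean of 1372 ± 55.8 CPM. Mir615, the intronic gene of Hoxc5, had 2428 and 1739 counts, or 436 and 401 CPM, with a mean of 418 ± 24.7 CPM. None of the 6 genes had a read on the opposite strand, and each count was the same when strand was ignored.

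**Figure D2:**
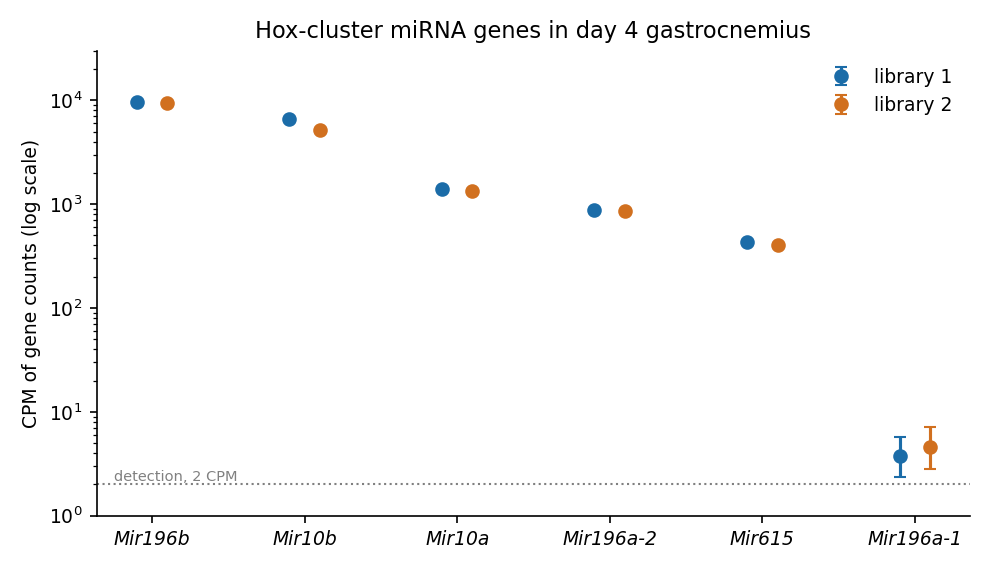
CPM of the 6 Hox-cluster miRNA genes (log scale) in library 1 and library 2, with exact 95% Poisson intervals that are hidden by the points except for Mir196a-1. The genes span from 4.19 CPM to 9580 CPM on average, and in no neighbouring pair does the lower gene reach the higher.

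The order of the levels was Mir196b, Mir10b, Mir10a, Mir196a-2, Mir615 and Mir196a-1 in both libraries. No pair of neighbours in that order overlapped between libraries. By mean level the closest pair was Mir10a over Mir196a-2, at 1.62-fold in library 1 and 1.55-fold in library 2, and Mir196a-2 is the gene whose count may be too low. Mir196b exceeded Mir10b 1.47-fold in library 1 and 1.85-fold in library 2, and Mir615 exceeded Mir196a-1 by 116-fold and 87.0-fold. The count of Mir196a-1 may be too low as well, so the places of both Mir196a genes in the order hold only for counted reads. The RNA was size-selected to about the length of 1 mature miRNA, so counts were not divided by gene length for these values. Mean CPM per base of the annotated hairpin gave the same order, from 113 for Mir196b, 86.0 for Mir10b, 12.5 for Mir10a and 10.2 for Mir196a-2 to 4.55 for Mir615 and 0.0411 for Mir196a-1. With 2 libraries of 1 group, the order was not tested across animals.

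Between the libraries, Mir10b stood out among the members by the size of its difference, and the mir-196 genes with many counts hardly moved. By an exact two-sided binomial test of the counts on TMM-scaled totals, with Benjamini-Hochberg adjustment over the 335 detected genes, 4 of the 6 members were lower in library 2, none was higher and 2 did not pass. Across all detected genes, 55.5% were called in either direction. By direction, 26.9% of the detected genes were called lower in library 2 and 28.7% higher, or 90 and 96 genes. Both libraries come from the same group, so these calls describe how far apart 2 animals or preparations were and no condition. With TMM factors taken from all 2202 counted genes, a choice added after seeing the data, the split over all genes was 117 lower and 74 higher.

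Mir10b was lower in library 2 by a log2 ratio of -0.38 (95% counting interval -0.40 to -0.35, adjusted p = 4.29e-209 by the exact binomial test). A larger difference in either direction was found in 90 of the 335 detected genes. Mir10a was lower by less, at -0.11 (-0.15 to -0.06, adjusted p = 6.60e-05 by the exact binomial test), and Mir615 was at -0.14 (-0.23 to -0.05, adjusted p = 0.00356). The shifts of Mir10a and Mir615 are smaller than the median absolute log2 ratio of 0.21 over all detected genes, and that of Mir10b is larger. Mir196b was called at only -0.04 (-0.06 to -0.02, adjusted p = 1.78e-05), and with library totals in place of TMM it was no longer called at -0.02 (adjusted p = 0.0549, both by the exact binomial test). A larger difference was found in 302 detected genes. Mir196a-2, also at -0.04 (-0.10 to 0.02), did not pass (adjusted p = 0.309 by the exact binomial test), but it was called lower with DESeq2 size factors (-0.07, adjusted p = 0.0447) and with TMM over all counted genes (-0.11, adjusted p = 0.00125). Mir196a-1 was at 0.27 (-0.69 to 1.22), and its 41 reads could not show a difference of the size seen in Mir10b. The median log2 ratio was -0.07 over the 6 members and 0.03 over all detected genes.

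**Figure D3:**
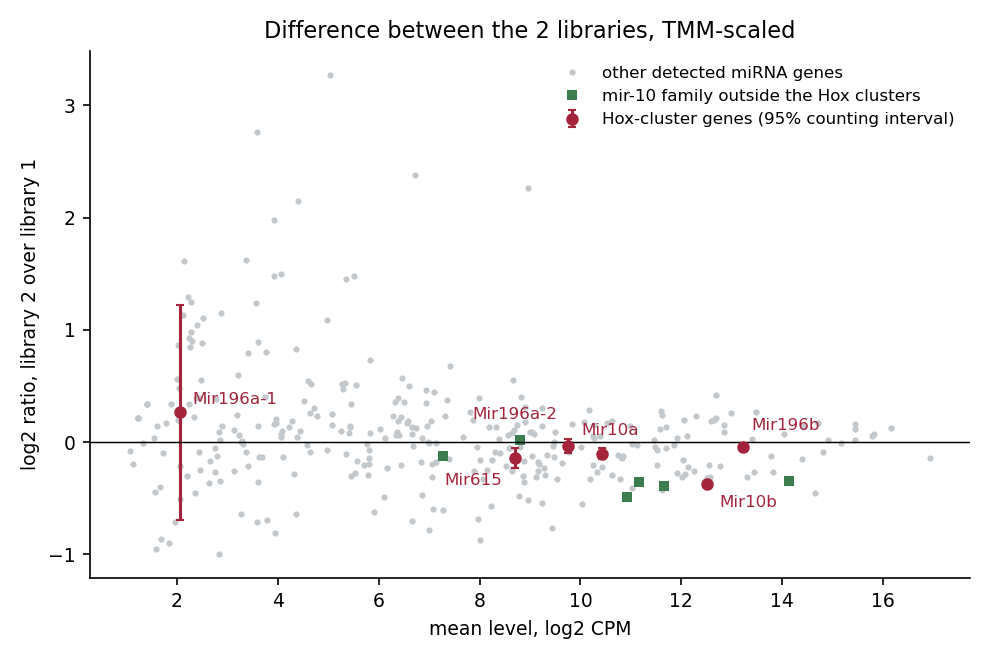
Log2 ratio of library 2 over library 1 against mean level (log2 CPM) for the 335 detected miRNA genes. Red points are the Hox-cluster genes with 95% counting intervals, and green squares the 6 listed mir-10 family genes outside the Hox clusters. Mir10b at -0.38 lies among the 4 green squares between -0.49 and -0.35, and Mir125b-1 at 0.02 and Mir125b-2 at -0.13 lie outside that range.

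Ratios between members within a library need no scaling. They restate the differences above from the same counts and are no separate support for them. Mir10b had 4.65 counts for each Mir10a count in library 1 and 3.85 in library 2, an odds ratio of 0.829 (exact conditional 95% interval 0.798 to 0.861). Mir196b had 1.47 counts for each Mir10b count in library 1 and 1.85 in library 2, an odds ratio of 1.26 (1.23 to 1.29). By contrast, Mir196b over the sum of both Mir196a genes was 11.02 in library 1 and 10.98 in library 2. The odds ratio was 0.996 (0.953 to 1.04). That sum covers only reads that matched 1 place. It lacks reads that are exactly miR-196a-5p, found in 2 counted genes, whereas miR-196b-5p is found in 1. This ratio can therefore be too high in both libraries. The share of Mir10b was thus lower in library 2 against both Mir10a and Mir196b. Among counted reads, the ratio within the mir-196 genes differed by less than counting error.

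Of the 8 detected skeletal muscle genes, 3 were called lower in library 2, 1 was called higher and 4 did not pass. Marker lists of other cell types also held genes called between the libraries, and the members of some went both ways. Over all detected genes, 26.9% were called lower in library 2 and 28.7% higher. The lists are too short to be set against those shares. The endothelial marker, 1 of 1 detected, was called lower, with 29518 CPM in library 1 and 21931 in library 2. Of the connective tissue and cartilage list, 4 of 5 were detected, 2 were lower and 2 did not pass, with sums of 5418 and 4243 CPM. Of the leukocyte list, 5 of 6 in the tables were detected with Mir146b at 0, 4 were lower and 1 did not pass, with sums of 1013 and 652 CPM. Epithelial genes, 5 of 7 detected, were all called higher, with sums of 267 and 375 CPM. Of 2 erythroid genes, 1 was higher and 1 did not pass, with sums of 96.8 and 119 CPM. The smooth muscle sums of 25509 and 29100 CPM hold Mir143, called higher at 24964 and 28592 CPM, and Mir145a, called lower at 545 and 508 CPM. Of the liver and gut list, 4 of 5 were detected with Mir194-1 at 0, and its sums of 213 and 866 CPM rest on Mir122 at 169 and 824 CPM. Mir192 of that list was called lower, at 14.9 and 9.22 CPM, and 2 did not pass. Of the neural list, 2 of 9 were detected, 1 was higher and 1 did not pass, with sums of 350 and 342 CPM. Mir124a-2, Mir124a-3 and Mir9-2 were at 0. Reads that match several places are in none of these counts, and shared sequences were not searched for these lists. A count at or near 0 thus need not mean that a miRNA was absent. The part of these lists in the differences of Mir10b and the other members was not tested.

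The mir-10 pair belongs to a family with branches outside the Hox clusters. The list used here holds mir-99, mir-100 and mir-125 genes, which lie beside let-7 genes. It leaves out Mir351, although miR-351-5p has the seed of miR-125a-5p. Mir351 was at 7446 CPM in library 1 and 6534 CPM in library 2, called lower at a log2 ratio of -0.21. All 6 listed relatives were detected, and in sum they held 28938 CPM in library 1 and 22970 CPM in library 2, against 7976 and 6468 CPM for the mir-10 pair. Mir99a, the highest of them, was at 19922 CPM in library 1 and 15916 CPM in library 2. Of the 6, 4 were called lower in library 2, none higher, and 2 did not pass, against 26.9% lower over all detected genes. The called genes had log2 ratios of -0.35 for Mir99a, -0.35 for Mir125a, -0.39 for Mir100 and -0.49 for Mir99b, against -0.38 for Mir10b. They are only the relatives that passed the test, and Mir10a at -0.11 lay farther from Mir10b. Of the 335 detected genes, 90 differed by more than Mir10b in either direction. Mir125b-1 at 0.02 and Mir125b-2 at -0.13 did not pass by the exact binomial test (adjusted p = 0.748 and 0.137). These 2 genes make the same miR-125b-5p, so their counts carry the same uncertainty as the Mir196a genes. These ratios come from the same 2 libraries and are not independent of each other.

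The let-7 family, whose seed overlaps that of miR-196, was far more abundant than the mir-196 genes. Its 12 genes were all detected and held 121765 CPM in library 1 and 125757 CPM in library 2, against 10523 and 10378 CPM for the 3 mir-196 genes. Single let-7 genes ranged from Mirlet7a-2 at 78.2 CPM to Mirlet7i at 55909 CPM, and Mir196b lay between Mirlet7d at 14045 CPM and Mirlet7b at 8145 CPM. The 5′ sequences of let-7a, let-7c and let-7f are each found in 2 counted genes, so the counts of those genes, which include the low end of the range, can be too low. Between the libraries 3 of the 12 were lower in library 2, 5 were higher and 4 did not pass, against 26.9% lower and 28.7% higher over all detected genes.

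**Figure D4:**
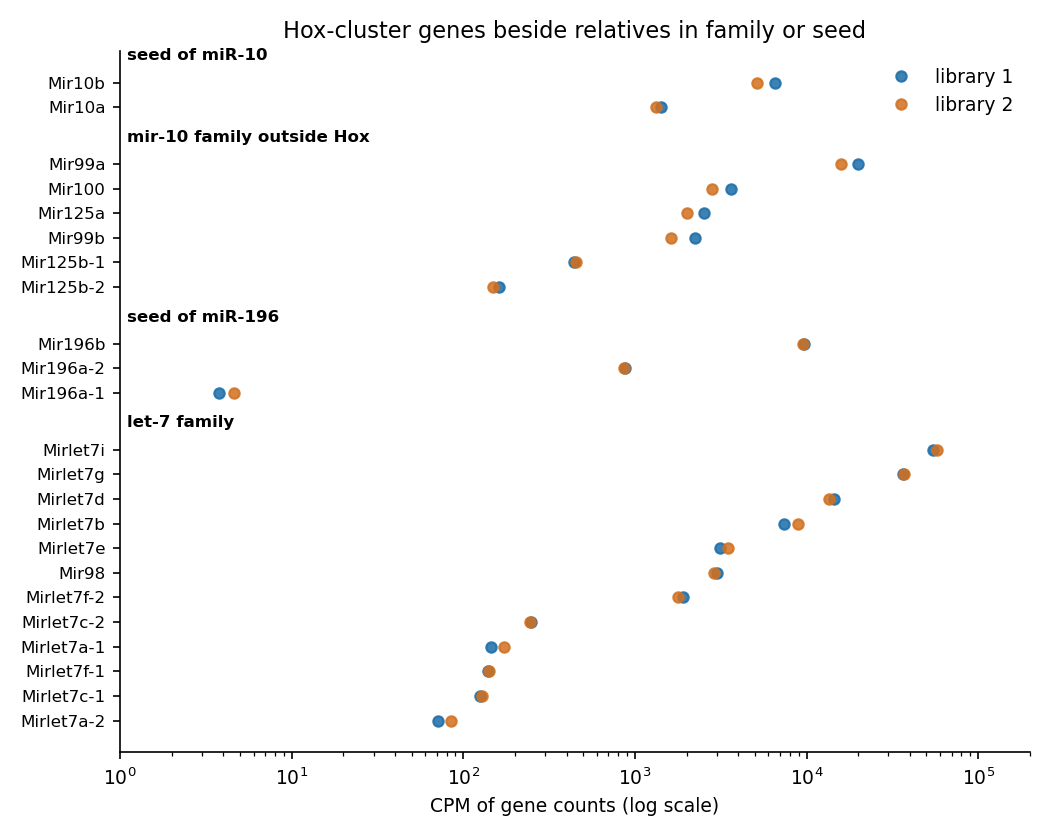
CPM of gene counts (log scale) for the mir-10 and mir-196 genes of the Hox clusters beside mir-10 family genes outside them and the let-7 family, 1 point per library. CPM is on the x axis, and library 1 lies to the right of library 2 for Mir10b, Mir99a, Mir100, Mir125a and Mir99b, among others. The points of Mir196b and Mir196a-2 nearly coincide.

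For each member, the detected gene nearest in log2 CPM over both libraries was found, as a description of level over 2 libraries. Mir10b was nearest to Mir299a, at 6421 and 5233 CPM, and Mir10a to Mir503, at 1466 and 1277 CPM. Mir196a-2 was nearest to Mir20a, at 875 and 881 CPM. Mir615 was nearest to Mir500, at 432 and 371 CPM, and Mir196a-1 to Mir6945, at 3.77 and 4.38 CPM. Mir196b had the most distant neighbour, Mir22 at 11083 and 9086 CPM, which was 0.21 log2 units away.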

How the data were processed

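The tables the authors deposited hold raw read counts per miRNA gene (mm10, GENCODE M21), per the text deposited beside them. No aligner or counter is named in the sources used here. Of the 3 count columns, judged by their sums, each holds 1 kind of read: regardless of strand, on the gene's own strand, and on the opposite strand. The own-strand counts were used, and the 4 lines that name no gene stayed out of totals and tests. Of all reads, own-strand gene counts made up 53.4% in library 1 and 51.1% in library 2, the multimapping line 36.9% and 37.6%, unmapped reads 8.03% and 9.26%, and reads without a feature 1.70% and 2.09%. All 2202 identifiers matched miRNA genes of GENCODE M21. TMM factors came from edgeR 4.0.16 over the 335 detected genes, in R 4.3.3, and the alternatives were size factors from DESeq2 1.42.0 and unscaled totals. Other steps ran in Python 3.11.15 with scipy 1.17.1, numpy 2.4.6, pandas 2.3.3 and, for figures, matplotlib 3.10.9. Genes were compared by an exact two-sided binomial test at an adjusted p threshold of 0.05, and the calculation was tested on simulated data. Intervals, and the upper limit of 3 counts where none was seen, cover only counting error, because the reads carry no molecular identifiers stated in the labels and may be copies of the same molecule. Counts pool both arms of a hairpin. Shared runs were searched among annotated hairpins of counted genes, not in the genome.

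The members and lists were chosen with earlier results of these data known. Genes named were the 6 members, their relatives by family or seed, the nearest detected gene of each member, genes sharing 20 bases or overlapping a member, and further counted genes of the Hox clusters. Marker lists served to check the tissue and other cell types.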

Additional observations from a re-analysis of the deposited data

Results flagged for a closer look

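The multimapping line, which enters no gene, held 3842752 reads in library 1 and 3187607 in library 2. It is listed here only because it lies outside the main measurement, and its size is no finding about the members. It held 36.4 times the reads counted for all 6 Hox-cluster genes in library 1 and 42.6 times in library 2. Against the counts of Mir196a-1 and Mir196a-2 together, it was 788 times as large in library 1 and 849 times in library 2. Which genes those reads belong to was not tested.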

How the results depend on the processing

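Scaled to all reads of the table in place of gene reads, CPM became 5007 for Mir196b, 3065 for Mir10b, 717 for Mir10a, 453 for Mir196a-2, 219 for Mir615 and 2.19 for Mir196a-1, and the Hox-cluster share 0.946%. With strand ignored, which leaves fewer gene reads in the total, Mir196b was at 10913 CPM, Mir10a at 1563, Mir196a-2 at 987 and Mir615 at 477, and the share was 2.06%. These settings cannot change the order of the members, because they rescale all of them alike. Mir196a-2 was called lower in library 2 with DESeq2 size factors (log2 ratio -0.071) and with TMM over all counted genes (-0.11), an alternative added after seeing the data, and Mir196b lost its call with library totals (-0.0204). The number of members called lower was 4 of 6 as reported (26.9% of all genes tested), 3 with library totals (24.8%), and 5 both with DESeq2 size factors (31.3%) and with TMM over all counted genes (34.9%). It was 4 of 5 tested with detection at 10 CPM (35% of all genes tested) and 4 of 6 with every gene that had 1 count or more (12.3%). The cause of these shifts was not tested. At 24 shared bases or more, 0 members shared a run, because the run common to both Mir196a genes is 22 bases. Each library alone gave a value with no test, from 1.72% to 1.89% for the share, and with 2 libraries this says nothing about stability. No paired analysis was possible because the series has 1 group. Depth limits Mir196a-1, with 21 and 20 counts, and these counts also lack reads that match several places.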
